A study of Mus musculus with 3 samples.

Results

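The 10 genes described here code for the mouse MHC class I molecule and the proteins that load it with peptide. They were taken by gene symbol from 23282 gene rows, in libraries of activated CD4 T cells, and were selected on their measured levels in these same libraries. Of the 10, 9 passed the filter on low values that left 12770 rows for testing, and H2-Q6 was listed at 0 in every library. Changes between media are therefore given as a description, without p-values for these 10 genes.

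Spleens and lymph nodes of C57BL/6 mice (female, and C57BL/6J in the study's methods) gave the CD4 T cells, which were stimulated with anti-CD3 and anti-CD28 at 2 µg/ml for 72 h. The study describes isolation on microbeads or by cell sorting. CM was complete RPMI-1640 with serum, DM was RPMI without amino acids with dialyzed serum, and DM+Met was DM with 30 µM methionine added. Each medium was represented by 2 libraries, called library 1 and library 2 of that medium. The study calls its 2 samples per medium biologically independent, while the labels do not state what the 2 files of a sample are, so the spread between libraries may be in part technical.

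The class I molecule presents peptides on the cell surface to CD8 T cells. Its heavy chain folds in the endoplasmic reticulum with the light chain beta-2-microglobulin, peptides cut by the proteasome enter through the Tap1-Tap2 transporter, and tapasin (Tapbp) bridges transporter and heavy chain while chaperones hold the chain open for loading. H2-K1 and H2-D1 are the classical heavy chains of this strain. H2-Q6, H2-Q7 and H2-Q9 belong to the non-classical Qa-2 group, H2-Q4 to the same gene cluster, and H2-T23 codes for Qa-1, a ligand of NKG2 receptors. In lymphocytes the genes are known to respond to interferons and to NF-kappa B, and NLRC5 is the transactivator of the class I promoters.

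By the GENCODE M21 annotation of GRCm38, the build that the submitters' notes give as mm10, 8 of the genes lie on chromosome 17 and B2m lies on chromosome 2 at chr2:122147686-122153083. H2-K1 is at chr17:33996017-34000347 on the minus strand, H2-D1 at chr17:35262730-35267499, H2-Q4 at chr17:35379617-35385290, H2-Q6 at chr17:35424850-35430055 and H2-Q7 at chr17:35439155-35443773, the last 4 on the plus strand. H2-T23 is at chr17:36029773-36032855 on the minus strand, Tap1 at chr17:34187553-34197225 and Tapbp at chr17:33915899-33929292, both on the plus strand. The position of H2-Q9 was not analysed here. The start of Tap1 overlaps Psmb9 on the opposite strand, and B2m, H2-Q4, H2-T23 and Tapbp also overlap other annotated genes. How the authors' counting treated strand and shared reads is not given in the sources used here.

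The promoters are shown because 5 heavy-chain genes share the same pair of regulatory words close to their start sites. RefSeq windows (GRCm38.p6, 250 bases before to 50 after the start) were matched for 9 of the 10 genes, H2-Q9 being the exception, and the first window of a gene was used. Both strands were searched for GAANTGAAA (the core of the interferon-stimulated response element), GGGNNTTCC (a kappa B core) and TGACGC (a CRE-like core). Each stretch below runs 5′ to 3′ on the strand of its gene, and capitals mark the matches in order, first the kappa B core and then the interferon element, which is read on the opposite strand, followed in H2-K1 and H2-D1 by the CRE-like core.
H2-K1, chr17:34000377-34000464, minus strand: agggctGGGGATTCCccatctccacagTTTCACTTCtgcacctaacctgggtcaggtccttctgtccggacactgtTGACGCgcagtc
H2-D1, chr17:35262917-35263004, plus strand: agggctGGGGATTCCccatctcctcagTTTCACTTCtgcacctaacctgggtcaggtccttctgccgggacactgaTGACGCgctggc
H2-Q4, chr17:35379438-35379478, plus strand: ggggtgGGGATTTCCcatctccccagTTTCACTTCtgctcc
H2-Q6, chr17:35424671-35424712, plus strand: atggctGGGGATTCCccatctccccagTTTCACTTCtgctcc
H2-Q7, chr17:35439016-35439056, plus strand: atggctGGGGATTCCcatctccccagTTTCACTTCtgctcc

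The kappa B core and the interferon element were separated by 12 bases in H2-K1, H2-D1 and H2-Q6 and by 11 bases in H2-Q4 and H2-Q7. The stretches of H2-K1 and H2-D1 differed at 6 of 88 bases. Among all 32851 promoter windows the interferon element was found in 1.83%, the kappa B core in 5.82% and the CRE-like core in 7.40%, and 35 windows (0.107%) held both of the first 2. No match to the 3 words was found in the windows of H2-T23, B2m, Tap1 and Tapbp, which says only that these letters are not in these windows. H2-Q4 had a further CRE-like match after its start. The levels of H2-K1 and H2-D1, whose stretches are nearly the same, are set side by side in the values that follow.

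**Figure D1:**
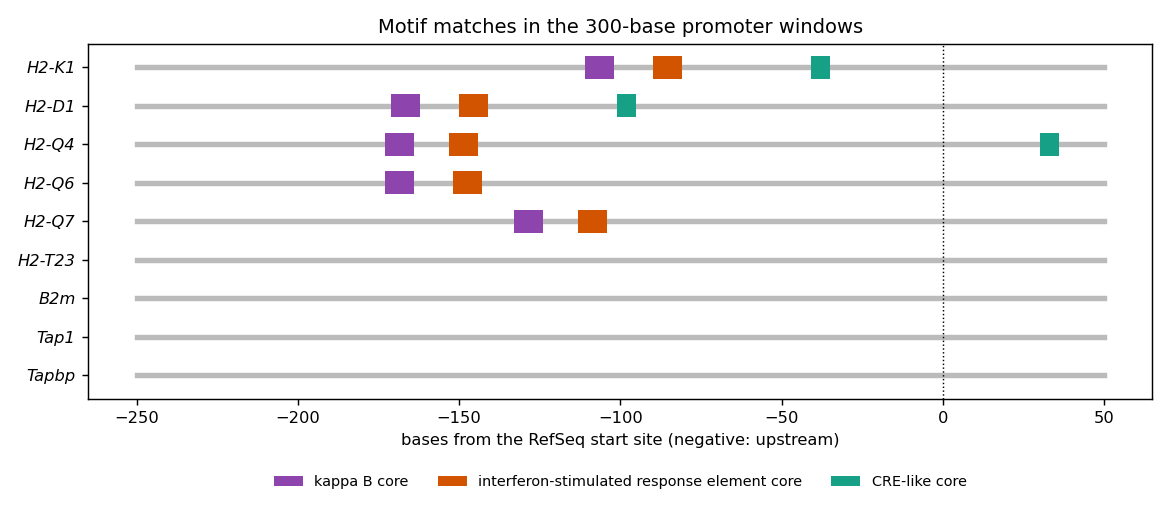
Matches of the 3 words in the 300-base promoter window of each gene (rows), in bases from the RefSeq start site. The kappa B core and the interferon element stand side by side in 5 heavy-chain genes, from 173 to 111 bases before the start for the kappa B core, and H2-T23, B2m, Tap1 and Tapbp show no match.

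Levels are given as the authors' log2(CPM + 1), where CPM counts the reads of a gene relative to a TMM-scaled library size, and changes as differences of mean log2 values ± SE. Depth was 8505227 to 12377035 reads per library, and a count of 0 allowed up to 3 reads, a log2 value of 0.323 to 0.469. Reads carry no molecular identifiers, so floors cover counting error only. The rRNA precursor row Rn45s took 31.0% to 32.9% of reads in CM, 37.2% to 38.3% in DM and 15.5% to 20.1% in DM+Met. Without TMM, scaling to library totals moved the median change of all rows to 0.34 between DM+Met and DM and to 0.41 between DM+Met and CM, against 0.01 and 0.06 in the values used here. Across tested rows, DM library 1 and DM library 2 were less alike (r = 0.919) than either was to the DM+Met libraries (r = 0.921 to 0.947). For the tested class I genes, differences that rest on the DM libraries are given also without each, as values or as ranges. For the other genes only calls kept or lost are given. Leaving out 1 library leaves 1 in its medium, and every such fit called fewer of all rows than the fit of all libraries. A call lost there is not by itself particular to the gene.

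As a check of the cell type, Cd4 was read in every library at a log2 level of 7.35 to 8.13, and the 10 CD4 T cell markers summed to 2129 to 2269 CPM in CM, 2543 to 2772 in DM and 2730 to 2762 in DM+Met. The 2 CD8 markers summed to 66.4 to 74.2 CPM in CM, 24.4 to 34.2 in DM and 23.4 to 27.8 in DM+Met. The 7 B cell markers summed to 87.6 to 102.7 CPM in CM, 79.9 to 81.8 in DM and 58.5 to 68.9 in DM+Met, with Pax5 at 0 throughout and the other 6 read in every library. The 9 myeloid markers summed to 18.2 to 28.2, 35.1 to 53.6 and 38.4 to 52.3 CPM, with 7 of 9 read in every library and none at 0 throughout. Among the CD4 T cell markers, Cd3g, Cd2, Cd5 and Trat1 passed as higher and Cd28 as lower in DM than in CM. Cd2 and Cd5 also passed as higher in DM+Met than in CM. In DM Cd3g and Cd28 were lost without any 1 library, Cd2 without CM library 1 and Cd5 without either CM library. Trat1, with 0 reads in both CM libraries, was kept only without DM library 1. In DM+Met Cd2 was lost without either DM+Met library, and Cd5 without either library of CM or of DM+Met. Cd8a passed as lower than in CM in both other media (limma adjusted p = 0.0323 and 0.0318), Lyz2 as higher in DM (0.0355) and Cd22 as lower in DM+Met (0.0273), where the B cell marker Ms4a1 differed by 1.09 without passing (0.117). Both Cd8a calls were lost without any 1 library, the Lyz2 call was kept only without CM library 2, and the Cd22 call was lost without either library of CM or of DM+Met. Their part in the class I values was not tested. In bulk RNA, fewer cells of a type and less RNA per cell cannot be told apart.

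The classical heavy chain H2-K1 was lowest in DM and highest in DM+Met. Its log2 level was 10.81 and 10.65 in the CM libraries, 10.14 and 10.30 in those of DM and 11.36 and 11.14 in those of DM+Met. The 3 media did not overlap. DM stood 0.51 ± 0.14 below CM on the log2 scale, DM+Met stood 1.03 ± 0.14 above DM, and DM+Met stood 0.52 ± 0.14 above CM.

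The second classical heavy chain, H2-D1, had overlapping values in CM and DM. Its level was 10.25 and 10.27 in the CM libraries, 10.40 and 10.26 in those of DM and 10.66 and 10.71 in those of DM+Met. CM and DM overlapped, with a difference of 0.07 ± 0.13 and a 95% interval of -0.22 to 0.36, and both DM+Met libraries lay above the other 4. DM+Met stood 0.36 ± 0.13 above DM and 0.43 ± 0.13 above CM.

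The ratio of H2-K1 to H2-D1 within a library does not depend on how libraries are scaled to each other. It was 1.48 and 1.31 in the CM libraries, 0.838 and 1.03 in those of DM and 1.62 and 1.35 in those of DM+Met. Both DM libraries lay below the other 4, and CM and DM+Met overlapped. The ratio of H2-Q9 to H2-D1 was 0.608 and 0.581 in the CM libraries, 0.239 and 0.204 in those of DM and 0.525 and 0.442 in those of DM+Met. These ratios show that the heavy chains changed unequally, not that any 1 of them was constant.

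**Figure D2:**
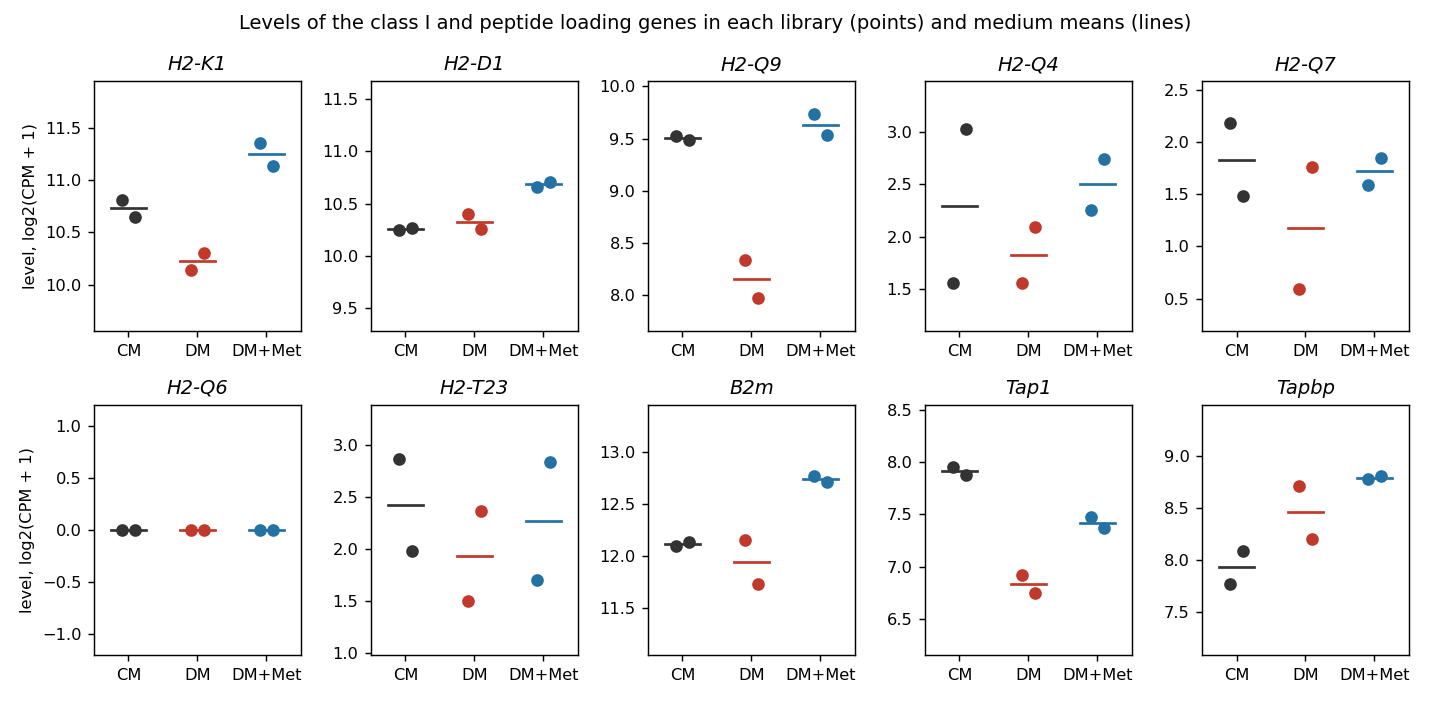
Level of each of the 10 genes as log2(CPM + 1) in the 6 libraries (points), with the mean of each medium as a line; all panels span 2.4 log2 units. H2-K1, H2-Q9 and Tap1 are lowest in both DM libraries, H2-D1 and B2m are highest in both DM+Met libraries, and H2-Q4, H2-Q7 and H2-T23 spread widely within a medium.

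H2-Q9 had the largest differences of DM from both other media among the 9 tested genes. Its level was 9.53 and 9.48 in the CM libraries, 8.34 and 7.97 in those of DM and 9.73 and 9.53 in those of DM+Met. Both DM libraries lay below the other 4, and CM and DM+Met stood next to each other without overlap, 0.13 ± 0.16 apart with an interval of -0.23 to 0.48. DM stood 1.35 ± 0.16 below CM, or 2.55-fold, and DM+Met stood 1.48 ± 0.16 above DM, or 2.79-fold.

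The other H2-Q rows were low. H2-Q4 had 17 and 56 reads in the CM libraries, 19 and 37 in those of DM and 45 and 68 in those of DM+Met, or log2 levels of 1.55 and 3.03, 1.56 and 2.09, and 2.25 and 2.75. H2-Q7 had 31 and 14 reads in the CM libraries, 5 and 27 in those of DM and 24 and 31 in those of DM+Met. H2-Q6 had 0 reads in all 6 libraries, which allows up to 3 reads in each. Within a medium the SD of the log2 level reached 1.04 for H2-Q4 in CM and 0.82 for H2-Q7 in DM (n = 2 each). Differences between media were 0.11 to 0.68 in size, with an SE of 0.63 to 0.65.

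The H2-Q rows belong to 1 gene cluster, so their reads were also summed. The 4 H2-Q rows summed to 743 and 724 CPM in the CM libraries, 325 and 255 in those of DM and 856 and 746 in those of DM+Met. H2-Q9 made up 97.8% to 99.3% of it in every library, so the sum followed H2-Q9. On the log2 scale it was 1.35 ± 0.16 lower in DM than in CM, 1.47 ± 0.16 higher in DM+Met than in DM, and 0.12 ± 0.16 higher in DM+Met than in CM.

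How far the 3′ ends can be told apart was counted in the annotated transcripts. Of the 50-base words in the last 300 bases of its protein-coding transcripts, H2-Q6 shared 49.4% with any part of other genes' transcripts, most often H2-Q7, H2-Q4 shared 45.4%, most often with genes outside the H2 family, H2-T23 50.6%, H2-D1 17.1% and H2-K1 5.39%. H2-Q7, B2m, Tap1 and Tapbp shared 0 words. H2-Q9 was not matched in that annotation, so the 0 of H2-Q7 does not cover words shared with H2-Q9. The 3′ end of H2-Q9 was not analysed here, so the share of its reads that could belong to H2-Q6 or H2-Q7 is not known.

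H2-T23 had 55 and 23 reads in the CM libraries, 18 and 47 in those of DM and 27 and 73 in those of DM+Met, or log2 levels of 2.86 and 1.98, 1.504 and 2.36, and 1.71 and 2.83. All 3 media overlapped, and differences between media of 0.15 to 0.49 were smaller than their SE of 0.65.

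The light chain B2m pairs with every one of these heavy chains. Its level was 12.10 and 12.14 in the CM libraries, 12.16 and 11.74 in those of DM and 12.77 and 12.72 in those of DM+Met. CM and DM overlapped, with DM 0.17 ± 0.17 lower, and both DM+Met libraries lay above the other 4. DM+Met stood 0.80 ± 0.17 above DM and 0.62 ± 0.17 above CM. Without DM library 1 or DM library 2, the difference between DM+Met and DM was 1.01 or 0.58.

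The transporter subunit Tap1 was highest in CM and lowest in DM. Its level was 7.96 and 7.88 in the CM libraries, 6.92 and 6.75 in those of DM and 7.47 and 7.37 in those of DM+Met. The 3 media did not overlap, in the order DM, DM+Met, CM. DM stood 1.09 ± 0.16 below CM, or 2.12-fold, and DM+Met stood 0.59 ± 0.16 above DM and 0.50 ± 0.16 below CM. The last difference was -0.11 with library totals in place of TMM and -0.38 with library totals less Rn45s.

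Tapasin, coded by Tapbp, was lowest in CM. Its level was 7.78 and 8.09 in the CM libraries, 8.72 and 8.21 in those of DM and 8.78 and 8.81 in those of DM+Met. DM stood 0.53 ± 0.19 above CM without overlap, and 0.28 or 0.78 above it without DM library 1 or DM library 2. DM+Met stood 0.33 ± 0.19 above DM and 0.86 ± 0.19 above CM. The ratio of Tapbp to Tap1 within a library was 0.882 and 1.16 in the CM libraries, 3.5 and 2.77 in those of DM and 2.48 and 2.72 in those of DM+Met.

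**Figure D3:**
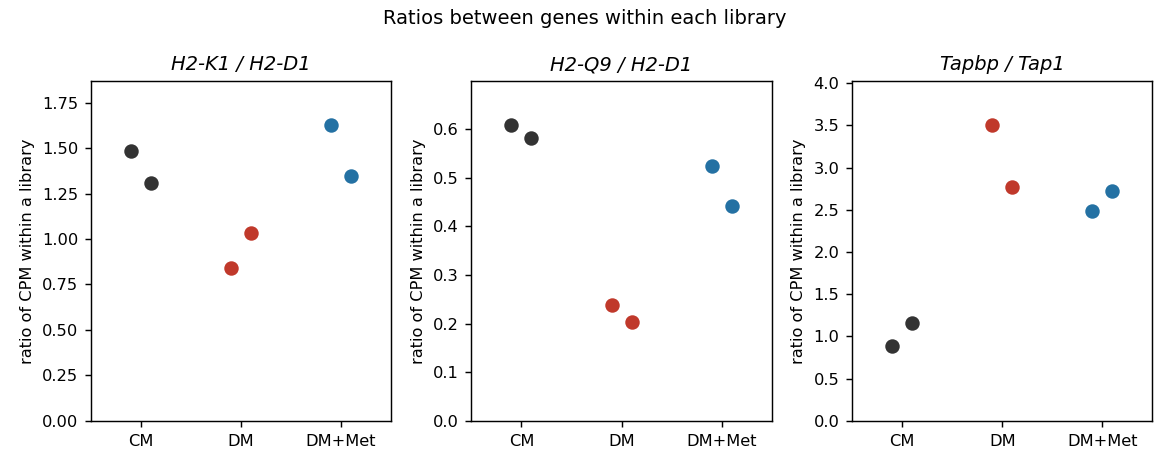
Ratios of CPM between pairs of genes within each of the 6 libraries (points), by medium. H2-K1 to H2-D1 and H2-Q9 to H2-D1 are lowest in both DM libraries, while Tapbp to Tap1 is higher in all 4 libraries of DM and DM+Met than in CM.

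In the fit over all rows (limma, Benjamini-Hochberg adjusted p below 0.05), 2154 rows (16.9%) passed between DM and CM, 996 of them higher (7.8%) and 1158 lower (9.07%). Of the 9 tested class I genes, H2-K1, H2-Q9 and Tap1 were called lower and none higher. The genes were chosen on these values, so neither the count nor the medians of the 9 are read against the values over all rows, here and in the other comparisons. The call of H2-K1 was lost when any 1 of the 6 libraries was left out, in fits that also called fewer of all rows. Without either DM+Met library its difference stayed at -0.51. With library totals less Rn45s H2-K1 was not called and Tapbp was called higher, by 0.69. Leaving out 1 library, H2-Q9 differed by -1.54 to -1.17, Tap1 by -1.17 to -1.001 and H2-K1 by -0.59 to -0.43. Without DM library 2 the difference of B2m was 0.04 and without CM library 2 that of H2-Q4 was 0.27, against -0.17 and -0.47. Without DM library 1 and without DM library 2, the differences were -0.0005 and 0.14 for H2-D1, -0.20 and -0.74 for H2-Q4, -0.07 and -1.24 for H2-Q7, and -0.06 and -0.92 for H2-T23. The median change of the 9 was -0.49, against 0.07 over all rows.

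Between DM+Met and DM, 7 rows passed (0.0548%), 5 higher (0.0392%) and 2 lower (0.0157%). H2-Q9 was the 1 class I gene among them. All 9 tested genes had a positive difference, as did 50.8% of all rows, with a median of 0.59 against 0.01 over all rows. H2-Q4, H2-Q7 and H2-T23 were among the 9 at 0.68 ± 0.65, 0.54 ± 0.63 and 0.34 ± 0.65. The 3 comparisons share their libraries with each other. The call of H2-Q9 was lost when any 1 of the 6 libraries was left out, with a change of 1.29 to 1.66 in those fits. Calls over all rows fell there as well, so the loss is not particular to H2-Q9. Leaving out 1 library, the difference of H2-K1 was 0.91 to 1.14 and that of Tap1 0.50 to 0.67. That of H2-D1 was 0.29 to 0.43 and that of Tapbp 0.08 to 0.59. Without DM library 1 or DM library 2 the difference of H2-Q4 was 0.41 or 0.94. Without DM library 1 the difference of H2-Q7 turned to -0.04, against 1.13 without DM library 2. That of H2-T23 ran from -0.23 to 0.90 leaving out 1 library, and was negative in 2 of the 6 such fits.

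Between DM+Met and CM, 1952 rows passed (15.3%), 884 higher (6.92%) and 1068 lower (8.36%). H2-K1, B2m and Tapbp were called higher and none of the 9 lower, with a median of 0.21 against 0.06 over all rows. Without CM library 1, CM library 2, DM+Met library 1 or DM+Met library 2 the count of called genes was 0. Without either DM library it was 4, with B2m, Tapbp and H2-D1 higher and Tap1 lower, and H2-K1 no longer called. The differences of H2-Q4, H2-Q7 and H2-T23 changed sign under 2, 3 and 3 of the alternatives. With library totals in place of TMM, H2-Q7 changed from -0.11 to 0.17 and H2-T23 from -0.15 to 0.16, within their SE. That scaling also moved the median of all rows, from 0.06 to 0.41.

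**Figure D4:**
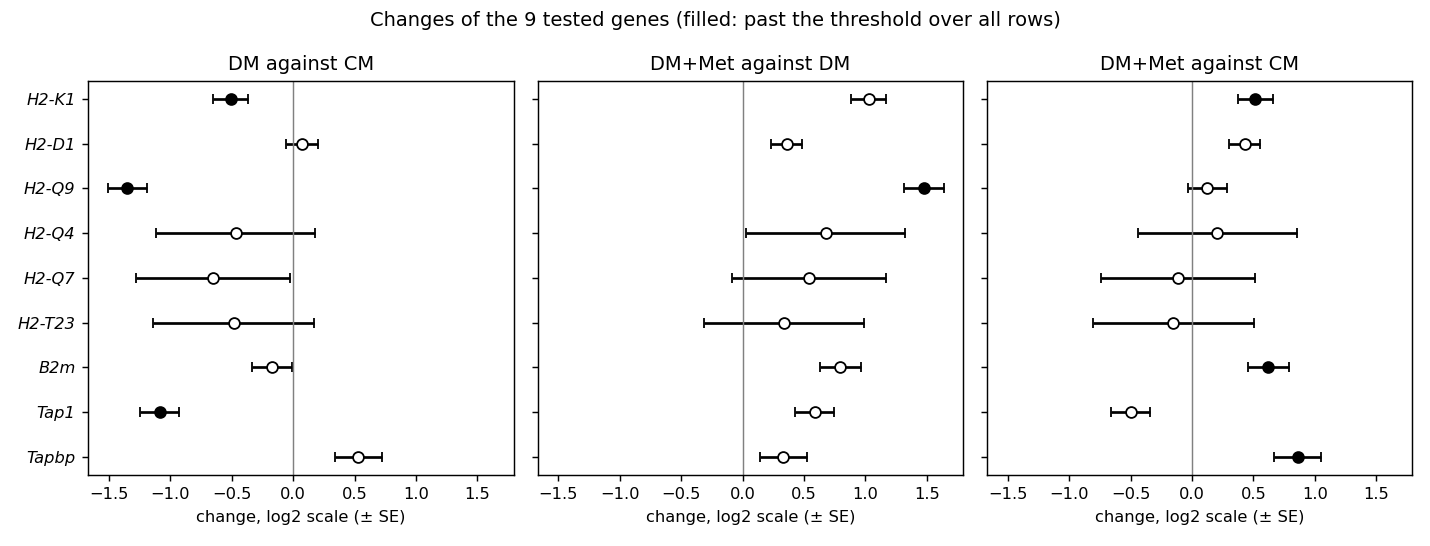
Differences of mean log2(CPM + 1) for the 9 tested genes in the 3 comparisons, with bars of 1 SE; filled points passed the threshold over all rows, as a description of genes chosen on these values. H2-K1, H2-Q9 and Tap1 lie below 0 between DM and CM, and H2-Q9 stands at 1.48 between DM+Met and DM.

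Beyond these genes, 84 others of the pathway were listed in 6 groups, and 74 of them were tested. All gene lists used here were also chosen with earlier results of these data known. Their counts, medians and p-values are therefore a description beside the values over all rows. Between DM and CM 23 were called, 12 higher and 11 lower, and 51 were not called. Over all rows 16.9% were called, 7.8% higher and 9.07% lower. The median change was -0.01 against 0.07 over all rows. Of the calls, only H2-M2, Sec61b and Bst2 held in each fit that left out 1 library. The split was 4 higher and 2 lower without CM library 1, 6 and 4 without CM library 2, 2 and 8 without DM library 1, 5 and 9 without DM library 2, and 5 and 7 without either DM+Met library. With library totals less Rn45s the split was 18 higher and 10 lower. In the comparison of DM+Met with DM none of the 74 was called by limma, with a median change of 0.27 against 0.01 over all rows. An unadjusted limma p below 0.05 was found for 12 of the 74, and for 1238 of all 12770 rows. The alternative limma-voom fit on the recovered reads called 0.

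Against CM, 15 of the pathway genes were called higher in DM+Met and 7 lower, and 52 were not called. Over all rows 15.3% were called, 6.92% higher and 8.36% lower. The median change was 0.25 against 0.06 over all rows. Of the 22, H2-M2 and Ifi47 held in each fit that left out 1 library. The split was 8 higher and 3 lower without CM library 1, 7 and 4 without CM library 2, 10 and 8 without DM library 1, 9 and 8 without DM library 2. Leaving out DM+Met library 1 gave 2 and 1, and leaving out DM+Met library 2 gave 3 and 1. Scaling to library totals gave 27 higher and 5 lower.

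**Figure D5:**
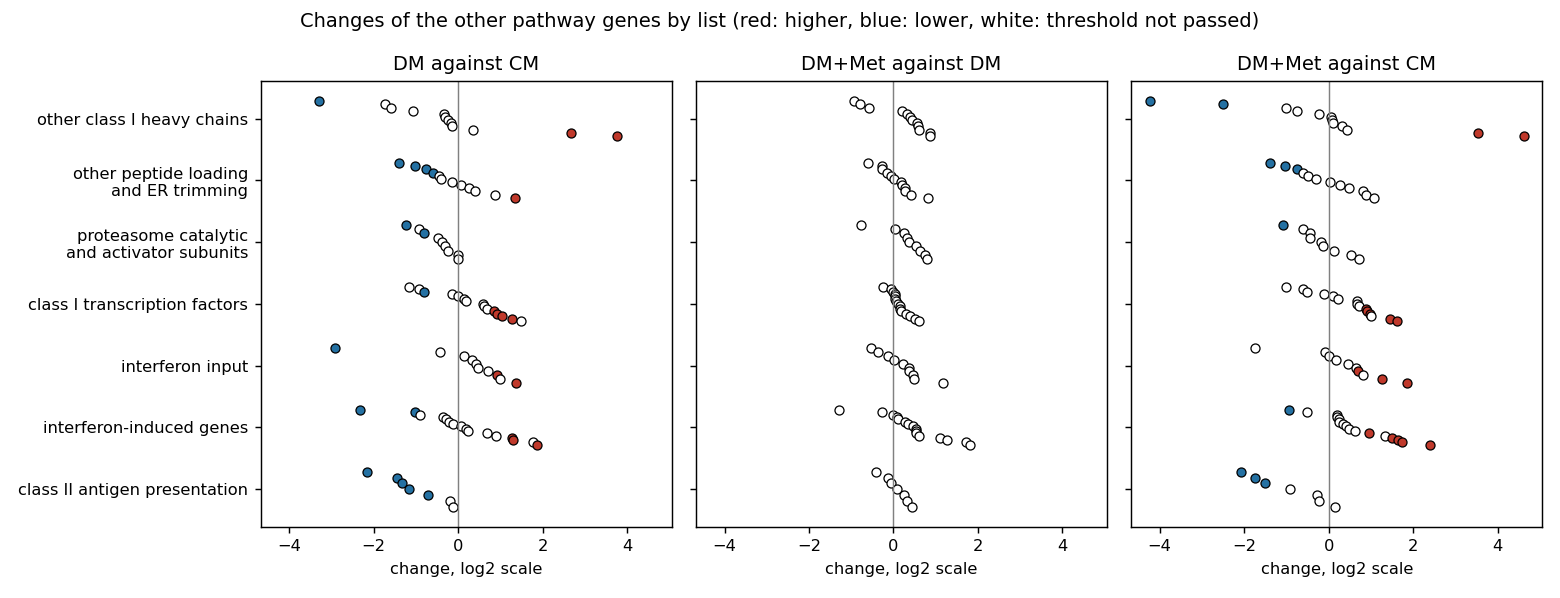
Differences of mean log2(CPM + 1) for each tested gene of the 6 pathway lists and the class II list (rows) in the 3 comparisons; each point is 1 gene, red if called higher, blue if called lower and white otherwise. Calls of both directions stand in the comparisons with CM, and none in DM+Met against DM.

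Of the 22 other class I heavy chains, 12 were tested. Cd1d1, which presents lipids, had 0 and 1 reads in the CM libraries, 97 and 36 in those of DM and 120 and 150 in those of DM+Met, and was called higher than in CM in both media (limma adjusted p = 0.0187 in DM and 0.00503 in DM+Met). H2-M2 had 1 and 0 reads in the CM libraries, 176 and 111 in those of DM and 371 and 237 in those of DM+Met (limma adjusted p = 0.00223 and 0.000617). These 2 genes were almost without reads in CM. H2-Q10 went in the opposite direction, with 197 and 165 reads in CM against 5 and 29 in DM, then 3 and 2 in DM+Met (limma adjusted p = 0.00672 and 0.00169). H2-Q5 had 130 reads in both CM libraries and 21 to 73 in the other 4, and fell by 2.51 ± 0.61 between DM+Met and CM (limma adjusted p = 0.0220). H2-M2 held in each fit that left out 1 library. In DM Cd1d1 was kept only without DM library 2, and H2-Q10 was lost without either CM library. In DM+Met Cd1d1 was lost without CM library 1 or either DM+Met library, H2-Q10 without either DM+Met library, and H2-Q5 without either library of CM or of DM+Met. The H2-T rows H2-T9, H2-T10 and H2-T22 passed no comparison, and H2-T10 and H2-T22 shared 49.8% and 49.0% of their 3′ words, all with each other.

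Of the 12 other loading and trimming genes, 4 were called lower and 1 higher between DM and CM. The lectin chaperones Calr and Canx fell by 0.59 ± 0.15 and 1.03 ± 0.19 (limma adjusted p = 0.0266 and 0.00672). Hspa5, the chaperone BiP, fell by 0.76 ± 0.14, and Sec61b, a subunit of the ER translocon, by 1.40 ± 0.21 (limma adjusted p = 0.00675 and 0.00245). Erap1, which trims peptides in the ER, rose by 1.35 ± 0.40 (limma adjusted p = 0.0465), a call lost without any 1 of the 6 libraries. Canx, Hspa5 and Sec61b were also lower in DM+Met than in CM, by differences of -0.75, -1.04 and -1.40. In DM Sec61b held in each fit that left out 1 library, Calr was kept only without DM library 1, Canx was lost without either CM library, and Hspa5 without either CM library or DM library 1. In DM+Met Canx was lost without either library of CM or of DM+Met, Hspa5 without DM+Met library 2 and Sec61b without DM+Met library 1.

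Tap2, the partner of Tap1 in the transporter, was not called in any comparison. Its level was 7.19 and 6.78 in the CM libraries, 7.54 and 6.57 in those of DM and 7.59 and 8.16 in those of DM+Met. DM and CM overlapped, with a difference of 0.06 ± 0.31 (limma adjusted p = 0.911), beside the -1.09 of Tap1. The ratio of Tap1 to Tap2 within a library was 1.70 and 2.15 in the CM libraries, 0.651 and 1.13 in those of DM and 0.920 and 0.577 in those of DM+Met.

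Of the 9 proteasome genes, Psme1, a subunit of the PA28 activator, fell by 0.81 ± 0.15 in DM against CM (limma adjusted p = 0.00591), and Psmb7, a constitutive catalytic subunit, fell by 1.24 ± 0.29 (limma adjusted p = 0.0174). The call of Psme1 was lost without CM library 1, and that of Psmb7 without any 1 of the 6 libraries. The immunoproteasome subunits Psmb8 and Psmb10 passed no comparison. Psmb9, the immunoproteasome subunit whose start overlaps that of Tap1, stood at 7.56 and 7.20 in the CM libraries, 7.08 and 7.07 in those of DM and 6.18 and 6.41 in those of DM+Met. It fell by 1.09 ± 0.19 between DM+Met and CM (limma adjusted p = 0.00488), a call lost without CM library 1 or without either DM+Met library. From DM to DM+Met it differed by -0.78 (limma adjusted p = 0.257), while Tap1 differed by 0.59.

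Among the 15 transcription factors, 4 were called higher and 1 lower between DM and CM. The NF-kappa B subunits Rela and Nfkb1 rose by 1.04 ± 0.20 and 1.26 ± 0.32, Creb1 by 0.91 ± 0.18 and Irf9, a part of the interferon-activated complex ISGF3, by 0.85 ± 0.21 (limma adjusted p = 0.00793, 0.0257, 0.0101 and 0.0236). Nfyb, a subunit of the promoter factor NF-Y, fell by 0.81 ± 0.19 (limma adjusted p = 0.0200). Irf9, Creb1 and Rela were also called higher in DM+Met than in CM. In DM Irf9 was lost without any 1 library, Creb1 without CM library 2 or either DM library, and Rela without CM library 1 or DM library 1, while Nfkb1 was kept only without CM library 1 and Nfyb only without DM library 2. In DM+Met Irf9 was lost without either DM+Met library, Rela without CM library 1 or either DM+Met library, and Creb1 without CM library 2, DM library 2 or either DM+Met library.

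Nlrc5, the class I transactivator, stood at 5.64 and 5.24 in the CM libraries, 5.93 and 6.13 in those of DM and 6.56 and 6.09 in those of DM+Met. It was called higher in DM+Met than in CM, by 0.88 ± 0.25 (limma adjusted p = 0.0416), and Rfxank, of the RFX complex that binds class I promoters, by 1.63 ± 0.47 (limma adjusted p = 0.0434). Both calls were lost without any 1 of the 6 libraries. Irf1 stood between 7.60 and 7.93 in all 6 libraries and was not called.

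Of the 10 genes of interferon input, Ifng, the gene of interferon gamma, fell in DM, from 79 and 148 reads in CM to 1 and 24 (log2 change -2.93 ± 0.67, limma adjusted p = 0.0176), and had 32 and 45 in DM+Met. Its receptor chain Ifngr1 rose by 0.91 ± 0.17 and the inhibitor of signalling Socs1 by 1.37 ± 0.26 (limma adjusted p = 0.00707 and 0.00773). In DM+Met, Ifngr1, Socs1 and Jak1 were called higher than in CM, by 1.26, 1.84 and 0.69, and Ifng was not called (-1.75, limma adjusted p = 0.111). The Ifng call was kept only without DM library 2. In DM Ifngr1 was lost without CM library 1 or DM library 1, and Socs1 without either library of CM or of DM+Met. In DM+Met Ifngr1 was lost without DM+Met library 1, Socs1 without either DM+Met library, and Jak1 without either library of CM or of DM+Met.

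The 16 interferon-induced genes split. Between DM and CM Ifit1, Ifi47 and Iigp1 rose by 1.87 ± 0.56, 1.28 ± 0.20 and 1.30 ± 0.38, while Bst2 and Ifi27l2a fell by 2.32 ± 0.40 and 1.04 ± 0.19 (limma adjusted p = 0.0480, 0.00309, 0.0426, 0.0050 and 0.00673). Bst2, the antiviral tetherin, stood at 4.51 and 4.84 in the CM libraries, 2.32 and 2.39 in those of DM and 4.16 and 4.15 in those of DM+Met, lowest in both DM libraries. The difference of 1.81 ± 0.40 between DM+Met and DM did not pass (limma adjusted p = 0.232). In DM+Met, Isg15, Ifit1, Gbp4, Ifi47 and Iigp1 were called higher than in CM, by 1.503, 2.41, 0.97, 1.74 and 1.64, and Ifi27l2a lower, by a difference of -0.95. Bst2 in DM and Ifi47 in DM+Met held in each fit that left out 1 library. In DM Ifit1 and Iigp1 were lost without any 1 library, Ifi47 without either DM library and Ifi27l2a without CM library 1. In DM+Met Isg15 and Gbp4 were lost without any 1 library, Ifit1 and Ifi27l2a without either library of CM or of DM+Met, and Iigp1 was kept only without CM library 1.

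Class II molecules present to CD4 T cells and are carried mainly by professional antigen-presenting cells. Of their 7 listed genes, 5 were called lower between DM and CM. The 7 summed to 601 to 652 CPM in CM, 278 to 357 in DM and 310 to 343 in DM+Met. Between DM and CM H2-Ab1, H2-Eb1, Cd74, H2-DMa and H2-DMb1 fell, by 1.32, 1.44, 0.72, 1.16 and 2.16 (limma adjusted p = 0.00534, 0.00436, 0.0406, 0.0202 and 0.0285), and H2-Aa (-0.12) and Ciita (-0.19) were not called. H2-Ab1, H2-Eb1 and H2-DMb1 were also called lower in DM+Met than in CM, and none of the 7 passed between DM+Met and DM (differences of -0.42 to 0.45). In DM+Met the class II sum lay below both CM values. The H2-Q sum lay above both, but at 746 CPM in DM+Met library 2 beside 743 in CM library 1. Its log2 difference between these media was 0.12 ± 0.16, which was not called. Why the 2 sums differed was not tested. H2-Ab1 in DM was lost without either CM library or DM library 2, H2-Eb1 without CM library 1 or either DM library, Cd74 and H2-DMb1 without any 1 library, and H2-DMa was kept only without DM library 1. In DM+Met H2-Ab1 was lost without DM+Met library 2, H2-Eb1 without CM library 1 or DM+Met library 1, and H2-DMb1 without any 1 library.

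Over the 6 libraries, the class I genes closest to the H2-Q sum, after H2-Q9 (1.0), which makes up nearly all of it, were H2-K1 (Pearson r = 0.86), Tap1 (0.85) and B2m (0.72), followed by H2-Q7 (0.45), H2-D1 (0.44), H2-Q4 (0.41), H2-T23 (0.24) and Tapbp (0.00). Of 7771 other rows with a mean of at least 10 CPM, the 5 closest were Il21r, the receptor of interleukin 21 (0.998), Cndp2, a dipeptidase (0.993), Polr2j, a subunit of RNA polymerase II (0.991), Nfkbib, an inhibitor of NF-kappa B (0.985), and Uba1, the ubiquitin-activating enzyme (0.985). All 5 were lowest in both DM libraries. Il21r stood at 7.04 in both CM libraries, 6.58 and 6.47 in those of DM and 7.10 and 7.01 in those of DM+Met. These 6 points fall in 3 media and share libraries and scaling, so the values describe a profile and carry no p.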

How the data were processed

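The authors deposited log2 values of TMM-scaled CPM plus 1 for each library, from QuantSeq 3′-end libraries of 500 ng total RNA. Base 2 and the addend of 1 were inferred from the equal steps of the back-transformed values. Bowtie2, bedtools and mm10 come from the submitters' processing notes. Annotation and strand handling are not given in the sources used here. Whole reads were recovered from the equal steps of CPM (at least 99.2% of values within 0.1 of a whole read) and gave the depth.

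Rows with at least 2 libraries at 0.946 CPM (10 reads at median depth) and 15 reads in all were fitted in 1 limma model (limma 3.58.1, R 4.3.3, lmFit and eBayes with trend, 3 media, no covariates), tested on simulated data. Tests were two-sided with Benjamini-Hochberg adjustment over all 12770 rows at 0.05. Each p-value sets a difference of means against the spread between these libraries. That spread is estimated in part from all rows, with 6.87 of 9.87 degrees of freedom from the prior.

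The 10 genes and the gene lists were chosen with earlier results of these data known. Named are all 10, every listed pathway gene past the threshold, Tap2, Psmb8, Psmb9, Psmb10, Nlrc5, Irf1, Ifng, the class II genes, and the 5 rows closest to the H2-Q sum. One further gene that the rule names is not reported here. The closing section gives the 17 alternatives.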

Additional observations from a re-analysis of the deposited data

How the results depend on the processing

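The count of class I genes called between DM and CM (3) was 2 or 3 under the 11 alternatives that left out no single library. H2-Q9 and Tap1 were called in all 11 and H2-K1 in 4 of them. With library totals less Rn45s the 3 held Tapbp, called higher, in place of H2-K1. For DM+Met against DM the count of 1 became 4 with library totals, 3 with limma-voom, a robust prior or a minimum of 10 reads per library, 2 with a pseudocount of 5, and 0 without a filter, in a fit of the 2 media alone or without an intensity trend. The call of H2-Q9 was lost whichever library was left out, in fits where calls over all rows fell as well. The pathway genes called there became 1 with library totals, against 0. For DM+Met against CM the class I count of 3 became 0 without a filter or a trend, and 1 with a pseudocount of 0.1. Over the same 11 alternatives H2-K1 was called in 6, B2m in 8 and Tapbp in 9. H2-D1, not called in the main fit, was called higher in 7, and Tap1 lower in 1. The 22 pathway genes there became 14 without a filter and 10 without a trend, and ranged from 3 to 18 leaving out 1 library. The 23 pathway genes called between DM and CM became 12 in a fit of the 2 media and 8 without a trend, and ranged from 6 to 14 leaving out 1 library. The H2-Q sum between DM and CM ranged from -1.52 to -1.17 leaving out 1 library. For DM+Met against DM it was 1.83 with library totals and 1.30 to 1.64 leaving out 1 library. For DM+Met against CM, library totals gave 0.52, with 0.02 to 0.22 leaving out 1 library. The cause of these shifts was not tested. Scaling to library totals also moved the median change of all rows. No called difference of the class I genes or of the H2-Q sum changed sign under the alternatives run. Sign changes were not counted for the other genes. H2-Q7 has no value with at least 10 reads in every library.

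Libraries of one number did not deviate together (r = -0.07 to 0.014 between pairs), so the numbers were not taken to pair the samples. A fit with the replicate number as a block called 2, 1 and 2 class I genes in the 3 comparisons and 23, 0 and 22 pathway genes, with H2-Q sum changes of -1.35, 1.47 and 0.12.

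With 2 libraries per medium, genes of few reads such as H2-Q4, H2-Q7 and H2-T23 have an SE of 0.63 to 0.65, and none of their differences between media passed the threshold.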
